A study of Mus musculus with 6 samples.

Results

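Lymphatic endothelial cells line the vessels that return fluid and immune cells from tissue to blood. Their fate is set by the transcription factor Prox1, which is switched on in venous cells by Sox18 and the nuclear receptor Nr2f2 and sustains the VEGF-C receptor gene Flt4, with which it forms a feedback loop. The genes described here, Prox1, Nr2f2, Lyve1, Pdpn, Thy1, Reln, Mmrn1, Sned1 and Fxyd6, mark this identity or are found among the transcripts of lymphatic endothelium. They were matched by gene symbol, each of the 9 to 1 of the 18956 genes of the deposited table. These members, and the gene lists used below, were chosen with earlier results of these data known.

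Expression was measured in mouse lung endothelial cells, with 3 WT libraries whose cells were Cre-negative and 3 libraries with the genotype CSE-KO whose cells were Cre-positive. They are numbered 1 to 3 within each group as in their titles, and values are given in that order. CSE is cystathionine gamma-lyase, an enzyme of cysteine and hydrogen sulfide production encoded by Cth. The sources used here do not give the strain, age or sex of the mice, the promoter that drives Cre, the deleted exons, or whether each library is a separate animal or culture. P-values therefore measure the spread among these libraries alone, and that spread may be technical. Differences among the 3 WT libraries did not exceed counting noise (index between 0.693 and 0.740 over 12143 genes, where 1 is counting noise alone). Nor did that between CSE-KO 2 and 3 (0.85), whereas CSE-KO 1 differed from CSE-KO 2 and 3 by more (1.72 and 2.02). The spread within CSE-KO thus comes largely from CSE-KO 1. Values are normalized counts, and a gene described as lower or higher is so in the CSE-KO group as labelled.

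Cth itself had WT values of 29, 27 and 26 and CSE-KO values of 49, 43 and 63, a rise (log2 fold change 0.89, adjusted p = 0.000794) that goes against the label. A value summed over a whole gene does not check the loss of some exons. Endothelial identity was checked on its markers: all 17 pan-endothelial genes on a list of such markers were measured, with a summed level between 27021 and 27539 in WT and between 15962 and 17368 in CSE-KO. All 17 were lower in CSE-KO, with a median log2 fold change of −0.86.

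Of the 9 lymphatic genes, all 9 passed the filter on low values, 7 were called lower in CSE-KO, Pdpn was called higher and Thy1 did not pass. Over all tested genes, 77.4% were called in either direction, 39.0% lower and 38.3% higher. At least 2-fold lower were 6 of the 9, against 12.3% of all tested genes. The median log2 fold change was −1.40 over the 9 and 0.001 over all tested genes. Because the members were chosen with earlier results known, these contrasts are descriptive and do not test for enrichment. The groups did not overlap in 8 of the 9, close to the 80.4% of all tested genes for which that held. In bulk RNA, fewer lymphatic cells and less of each transcript per cell cannot be told apart.

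**Figure D1:**
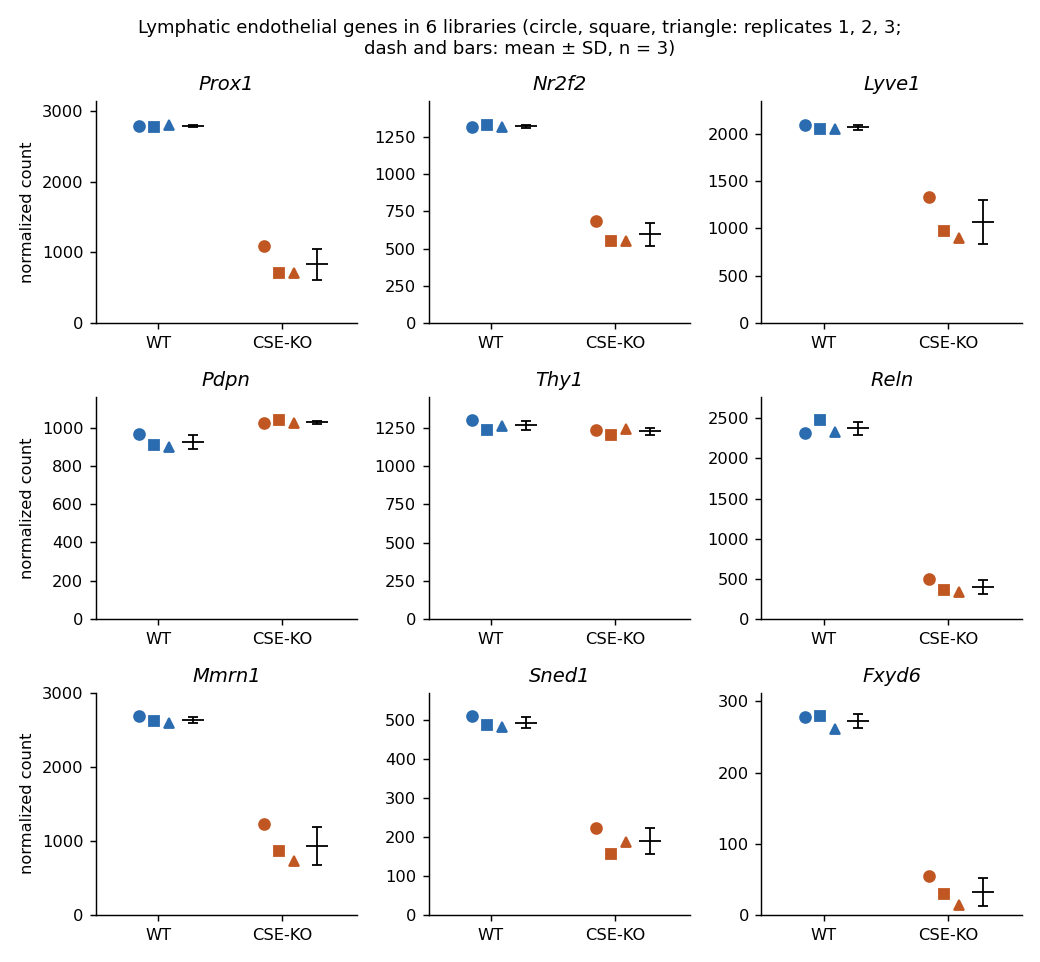
Normalized count (vertical axis, from 0) of each of the 9 genes in WT and CSE-KO; each symbol is 1 library, and the dash with bars is the mean ± SD of 3. In 7 genes every CSE-KO library lies below every WT library and CSE-KO 1 is the highest of its group, while Thy1 overlaps and Pdpn lies slightly above WT.

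Both transcription factor genes were lower in CSE-KO. Prox1 (ENSMUSG00000010175, chromosome 1, 190118035 to 190170714, minus strand, mm10) had WT values of 2786, 2773 and 2805 and CSE-KO values of 1085, 707 and 703. The WT libraries were nearly identical, and CSE-KO 1 kept 38.9% of the WT mean where CSE-KO 2 and 3 kept 25.4% and 25.2%. Prox1 was 3.42-fold lower, with a log2 fold change of −1.78 (SE 0.20, adjusted p = 0.0012). Without CSE-KO 1 the log2 fold change was −1.98.

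Nr2f2, also called COUP-TFII, is a nuclear receptor of venous and lymphatic endothelium (ENSMUSG00000030551, chromosome 7, 70351944 to 70366735, minus strand). The WT libraries gave 1314, 1332 and 1313, and the CSE-KO libraries 686, 550 and 550, all below WT. Nr2f2 was 2.23-fold lower (log2 fold change −1.16, SE 0.09, adjusted p = 7.3e-05). The ratio of the Nr2f2 count to the Prox1 count went from between 0.468 and 0.480 in WT to between 0.632 and 0.782 in CSE-KO, with no overlap.

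Promoter sequences are shown for Prox1 and Reln, both of which fell, for Mmrn1, which also fell and held the SOX core 3 times, and for Pdpn, which rose. They come from RefSeq on GRCm38.p6, which is mm10, and run from 250 bases before to 50 after a start of transcription. Of the 9 genes, 7 had an entry; Lyve1 and Thy1 were not matched. Capitals mark matches, on either strand, to a SOX core, a nuclear receptor unit, a GATA core or a TATA box, whose letters are given after the sequences. The Prox1 window lies at chr1:190170778-190171077, the Reln window at chr5:22344656-22344955, both on the minus strand, the Mmrn1 window at chr6:60944067-60944366 on the plus strand, and the Pdpn window at chr4:143299515-143299814 on the minus strand.
Prox1: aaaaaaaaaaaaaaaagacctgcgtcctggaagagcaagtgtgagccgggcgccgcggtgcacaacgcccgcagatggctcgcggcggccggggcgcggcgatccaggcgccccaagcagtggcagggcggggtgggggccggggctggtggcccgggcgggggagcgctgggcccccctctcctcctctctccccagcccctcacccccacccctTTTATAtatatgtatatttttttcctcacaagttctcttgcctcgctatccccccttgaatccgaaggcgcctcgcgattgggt
Reln: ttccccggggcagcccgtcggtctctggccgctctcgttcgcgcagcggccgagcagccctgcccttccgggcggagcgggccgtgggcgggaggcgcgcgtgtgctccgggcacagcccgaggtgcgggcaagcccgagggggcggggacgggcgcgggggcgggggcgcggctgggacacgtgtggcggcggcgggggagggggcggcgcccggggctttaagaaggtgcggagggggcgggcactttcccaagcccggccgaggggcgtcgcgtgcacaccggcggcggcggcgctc
Mmrn1: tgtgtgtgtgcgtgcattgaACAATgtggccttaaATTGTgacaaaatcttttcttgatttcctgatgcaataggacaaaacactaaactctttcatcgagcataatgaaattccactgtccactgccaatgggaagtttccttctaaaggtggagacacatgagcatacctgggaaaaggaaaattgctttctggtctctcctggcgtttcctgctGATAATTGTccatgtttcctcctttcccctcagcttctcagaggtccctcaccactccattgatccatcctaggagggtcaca
Pdpn: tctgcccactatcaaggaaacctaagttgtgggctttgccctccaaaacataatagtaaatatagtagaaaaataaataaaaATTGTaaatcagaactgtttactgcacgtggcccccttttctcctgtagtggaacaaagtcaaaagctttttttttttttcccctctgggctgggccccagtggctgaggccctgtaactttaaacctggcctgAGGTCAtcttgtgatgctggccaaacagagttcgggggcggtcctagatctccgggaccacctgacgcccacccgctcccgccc

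The windows differed mostly in base composition. That of Reln was 80.7% G and C with 47 CpG dinucleotides and that of Prox1 64.3% with 25, whereas that of Mmrn1 was 44.3% with 3 and that of Pdpn 48.7% with 7. The median over all promoters of this length was 52.7% and 7. The SOX core, ACAAT, was found 3 times in the Mmrn1 window, where 1 match shares a base with the GATA core, and once in that of Pdpn; 31.0% of 32851 promoters held at least 1. The unit bound by nuclear receptors such as Nr2f2, AGGTCA, was found only in the window of Pdpn among the 7, against 16.3% of all promoters. The GATA core, spelled GATAA, was found only in that of Mmrn1 among the 7 and in 25.4% of all. The TATA box, read as TATAAA on either strand, was found only in that of Prox1 among the 7 and in 13.6% of all. In the Prox1 window the match was the reverse form, TTTATA. The RefSeq start behind the Mmrn1 window lies 19341 bp from the 5′ end of the gene in GENCODE release M21, and that behind the Prox1 window 113 bp. A match describes these letters and does not show that a factor binds there.

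The 3 genes of surface proteins did not move together: Lyve1 was lower, Pdpn slightly higher, and Thy1 did not pass. Lyve1, a hyaluronan receptor (ENSMUSG00000030787, chromosome 7, 110850607 to 110863239), gave 2094, 2053 and 2051 in WT libraries against 1327, 967 and 894 in those of CSE-KO. The groups did not overlap, and CSE-KO 1 kept 64.2% of the WT mean, the largest remainder among the genes that fell. Lyve1 was 1.97-fold lower (log2 fold change −0.98, SE 0.17, adjusted p = 0.0052). With the WT libraries counted as 1 sample, so that the spread among libraries comes from CSE-KO alone and WT is assumed to vary like it, the log2 fold change was still −0.98 but did not pass (SE 0.31, adjusted p = 0.090). Lyve1 had the highest normalized count per exonic base of the 9 genes in WT, 0.708, and the log2 fold change was −1.46 once reads that share a start position by chance were allowed for, since such reads are lost if they were removed as duplicates.

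Pdpn encodes podoplanin, a mucin-type glycoprotein that binds the platelet receptor CLEC-2 and helps keep blood and lymph apart (ENSMUSG00000028583, chromosome 4, 143267431 to 143299564). WT values were 965, 907 and 901, and CSE-KO values were 1022, 1037 and 1024. The groups lay close but did not overlap. The rise was 1.11-fold (log2 fold change 0.15, SE 0.03, adjusted p = 0.00088), and it did not pass a test against a fold of 1.2.

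Thy1, a GPI-anchored glycoprotein also carried by fibroblasts and T cells (ENSMUSG00000032011, chromosome 9, 44043384 to 44048579), had WT values of 1300, 1239 and 1263 beside CSE-KO values of 1241, 1204 and 1244. The groups overlapped. The log2 fold change of Thy1 was −0.04 (SE 0.03, adjusted p = 0.16), and its sign turned with upper-quartile scaling (0.01) and with equal totals (0.03). Pdpn and Thy1 are also made by other cells of the lung, and markers of several of these moved between the groups. Of the mesothelial markers, 5 of 6 tested were higher and 1 lower, with a summed level of 666 to 714 in WT and 999 to 1141 in CSE-KO. Without Gpm6a, the marker that was lower, the sums were 208 to 223 and 797 to 955. Muc16, too low to be tested, was at 0 in each WT library and had CSE-KO values of 1, 0 and 3. Of the fibroblast markers, 2 of 8 were higher and 2 lower, with summed levels of 1286 to 1370 and 1247 to 1607. Of the mural markers, 5 of 8 were higher and 2 lower, with sums of 941 to 996 and 1712 to 1854. Alveolar epithelial markers went the other way, with 2 of 3 tested lower and 0 higher. Their sums were 98 to 113 in WT and 23 to 47 in CSE-KO. Of the 8 T cell markers, the deposited values held only 1, Lck, at 137 to 141 in WT and 226 to 238 in CSE-KO. Cd3e, Cd4 and Cd8a were among those without values. The part of these cells in the values of Pdpn and Thy1 was not tested.

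The 3 genes of secreted and matrix proteins were all lower. Reln encodes reelin, a large secreted glycoprotein known from neuronal migration and, in mouse, from the coating of collecting lymphatics with smooth muscle (ENSMUSG00000042453, chromosome 5, 21884454 to 22344702). WT libraries gave 2316, 2471 and 2328, and CSE-KO libraries gave 496, 359 and 335. Each CSE-KO library kept between 14.1% and 20.9% of the WT mean. Reln was 6.06-fold lower (log2 fold change −2.60, SE 0.17, adjusted p = 0.00013). Relative to Prox1, its level dropped from between 0.830 and 0.891 in WT to between 0.457 and 0.508 in CSE-KO.

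Mmrn1 encodes multimerin 1, a large multimeric protein stored in platelets and endothelial cells that binds coagulation factor V (ENSMUSG00000054641, chromosome 6, 60924976 to 60989378). Its WT values of 2689, 2626 and 2602 lay far above its CSE-KO values of 1225, 863 and 724. The CSE-KO libraries were spread over 27.6% of their mean (coefficient of variation), against 1.70% in WT. Mmrn1 was 2.88-fold lower (log2 fold change −1.53, SE 0.22, adjusted p = 0.0027). With WT counted as 1 sample, and the spread thus taken from CSE-KO, the log2 fold change was still −1.53 but did not pass (SE 0.40, adjusted p = 0.062). Of 8 platelet markers, 3 were tested and all 3 were higher. The summed level was 61 to 73 in WT and 133 to 148 in CSE-KO. Gp9, too low to be tested, went the other way, from 7, 4 and 2 in WT to 1, 1 and 0 in CSE-KO. Gp1ba, Gp1bb, Gp6 and Treml1 had no deposited values. The part of platelets in the Mmrn1 values was not tested.

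Sned1, an extracellular matrix protein with nidogen and EGF-like domains (ENSMUSG00000047793, chromosome 1, 93235841 to 93301065), gave WT values of 509, 487 and 483 and CSE-KO values of 223, 156 and 188, without overlap. Among the genes that fell, it was 1 of 2 in which CSE-KO 3 was not the lowest library, the other being Nr2f2, where CSE-KO 2 and 3 were equal. Sned1 was 2.63-fold lower (log2 fold change −1.40, SE 0.12, adjusted p = 2.8e-05). Its exons share 1855 bases with Mterf4 on the opposite strand, which was higher in CSE-KO (log2 fold change 0.29), and the treatment of shared bases in the counting is not stated in the sources used.

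Fxyd6, a small membrane protein that modulates the sodium pump (ENSMUSG00000066705, chromosome 9, 45370185 to 45396159), had WT values of 278, 279 and 261 and CSE-KO values of 54, 29 and 14. The CSE-KO libraries differed widely among themselves, keeping 19.8%, 10.6% and 5.13% of the WT mean. Fxyd6 was 9.56-fold lower, the steepest fall of the 9 genes (log2 fold change −3.26, SE 0.52, adjusted p = 0.0033). The log2 fold change was −3.72 without CSE-KO 1 and −2.77 without CSE-KO 3.

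**Figure D2:**
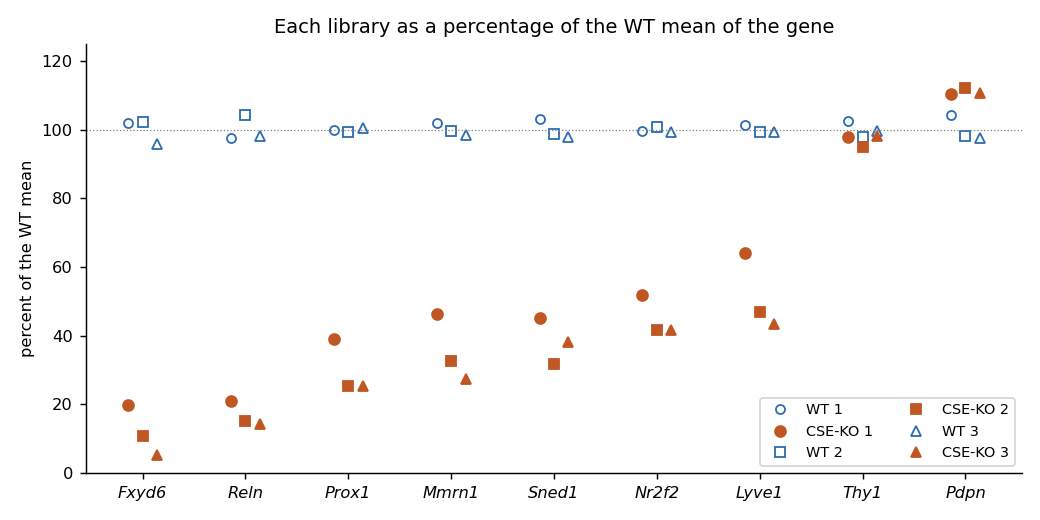
Each library as a percentage of the WT mean of the same gene (vertical axis), with open blue symbols for WT and filled orange symbols for CSE-KO; genes are ordered from the steepest fall to the rise. CSE-KO 1 lies above CSE-KO 2 and 3 in the 7 genes that fell, from 19.8% for Fxyd6 to 64.2% for Lyve1.

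In all 7 genes that fell, CSE-KO 1 had the highest value of its group, as it did in 61.5% of the 5369 genes called lower across the table. Markers of dividing cells showed the same order, with all 8 lower and a summed level of 9235 to 9399 in WT, 3205 in CSE-KO 1, 2059 in CSE-KO 2 and 1951 in CSE-KO 3. Their part in the lymphatic values was not tested. Without CSE-KO 1, 7 members were still called lower and 1 higher.

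The order of the levels changed between groups. Normalized counts per kilobase of exon allow for gene length, taken over all annotated exons, but not for shared starts. Levels of different genes are thus only roughly comparable. The WT order on this scale ran from Lyve1 (708 ± 8.31, SD, n = 3) over Pdpn (509 ± 19.5), Mmrn1 (450 ± 7.66) and Thy1 (423 ± 10.3) to Prox1 (332 ± 1.92). Nr2f2 (153 ± 1.24), Reln (99.9 ± 3.63), Fxyd6 (66.4 ± 2.46) and Sned1 (51.9 ± 1.48) followed in that order. No neighbours overlapped in this order in WT. In CSE-KO the highest were Pdpn (566 ± 4.48), Thy1 (411 ± 7.44) and Lyve1 (364 ± 79.4), of which Thy1 and Lyve1 overlapped. Below them came Mmrn1 (160 ± 44.1) and Prox1 (99.1 ± 26.2), which overlapped, then Nr2f2 (69.0 ± 9.10), then Sned1 (19.9 ± 3.53) and Reln (16.7 ± 3.66), which overlapped, and last Fxyd6 (7.87 ± 4.92).

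Relative to other endothelial genes, 6 of the 7 genes that fell were lower without overlap of the groups under both references tried. For Lyve1 the reading depended on the reference. Before any ratio was taken, the groups did not overlap in 80.4% of all tested genes. That share was not computed for ratios, so the lack of overlap does not set these members apart. Cdh5 and Pecam1, which encode junction proteins of all endothelium, were lower by 0.08 and 0.30 on the log2 scale (Cdh5 at 2849, 2815 and 2823 in WT against 2678, 2676 and 2666; Pecam1 at 2340, 2299 and 2302 against 1875, 1877 and 1886). As a log2 ratio to the mean of both, the difference between groups (CSE-KO minus WT) was −3.07 for Fxyd6, −2.41 for Reln, −1.58 for Prox1, −1.34 for Mmrn1, −1.20 for Sned1, −0.96 for Nr2f2 and −0.79 for Lyve1, and 0.15 for Thy1 and 0.34 for Pdpn. For each of the 9 genes the exact two-sided permutation test gave p = 0.10, the smallest value that 3 libraries against 3 allow. Against the mean of all 17 pan-endothelial markers, Fxyd6 stood at −2.26, Reln at −1.60, Prox1 at −0.78, Mmrn1 at −0.53, Sned1 at −0.40 and Nr2f2 at −0.16, still with no overlap of the groups. Lyve1 was at 0.02, with overlapping groups (exact permutation p = 1.0), so no difference relative to this mean was detected beyond the spread between libraries. With starts shared by chance allowed for, a choice made after seeing the data, the value for Lyve1 against the 17 markers was −0.32 and the groups no longer overlapped (exact permutation p = 0.10). Pdpn and Thy1 were higher relative to the 17 markers, by 1.15 and 0.95.

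**Figure D3:**
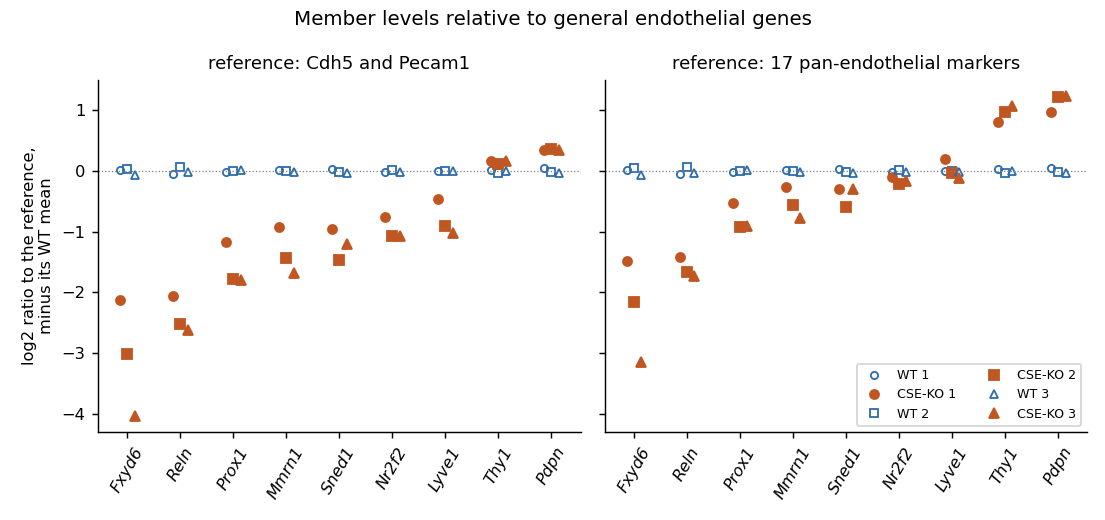
Log2 ratio of each gene to Cdh5 and Pecam1 (left) or to 17 pan-endothelial markers (right), minus its WT mean, with 1 symbol per library. Fxyd6 and Reln lie lowest against both references, Lyve1 is at 0.02 on average against the 17 markers, and Pdpn and Thy1 lie above 0.

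Other genes of lymphatic development and function were read from 6 lists by role. Of 60 different genes, 52 were tested, of which 41 were lower, 9 were higher and 2 did not pass, with a median log2 fold change of −0.75. Over all tested genes, 39.0% were lower and 38.3% higher. As the lists too were chosen with earlier results known, this contrast is descriptive. The lists are not purely lymphatic. Kdr, Tie1, Tek, Ptprb and S1pr1 are also among the pan-endothelial markers, all 17 of which were lower (median −0.86). Efnb2 and Sox17 are also among the blood endothelial markers. Among the fate regulators, 8 of 12 were lower and 2 higher. Sox18, which activates Prox1, went from 829, 784 and 822 to 339, 187 and 163 (log2 fold change −1.89, adjusted p = 0.0047). Nr2f1, the close relative of Nr2f2, fell by 1.84 on the log2 scale (adjusted p = 2.3e-08), and Maf, a transcription factor of lymphatic endothelium, fell by 2.42 (adjusted p = 0.0032). Tbx1 (log2 fold change −0.53) and Hhex (−1.01) fell as well, while Foxc1 (0.82) rose. Gata2, a regulator of lymphatic valves, had WT values of 814, 824 and 836 and CSE-KO values of 837, 871 and 900, and did not pass (adjusted p = 0.051).

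The VEGF-C axis, the growth factor pathway on which lymphatic vessels depend, split by role. The receptor gene Flt4 fell from 4322, 4193 and 4199 to 2355, 1823 and 1833 (log2 fold change −1.09, adjusted p = 0.00086), and the co-receptor gene Nrp2 fell by 0.50. Ptpn14, a phosphatase that restrains this receptor, fell by 0.46. The ligand Vegfc rose from 22, 26 and 20 to 157, 160 and 175 (log2 fold change 2.83, adjusted p = 1.2e-08), and Ccbe1, which is needed for its processing, from 181, 196 and 171 to 399, 409 and 430 (log2 fold change 1.18, adjusted p = 2.1e-08). In all, 4 of the 7 tested genes of this axis were lower and 3 higher. Of the mural markers, 5 of 8 were also higher and 2 lower, and of the macrophage markers 13 of 15 were higher and 1 lower. The part of such cells in the Vegfc and Ccbe1 values was not tested. Of the adrenomedullin axis, the receptor genes Calcrl (log2 fold change −0.81), Ramp2 (−1.64) and Ackr3 (−2.72) were lower and the ligand Adm was higher (0.34). All 5 tested genes of the angiopoietin axis were lower, among them the receptors Tie1 (−0.86) and Tek (−1.57) and the phosphatase Ptprb (−1.48).

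Valve and junction genes were lower in 8 of 9 tested. Itga9, an integrin of lymphatic valves, went from 764, 759 and 731 to 146, 85 and 91 (log2 fold change −2.84), and the planar polarity genes Celsr1 (−3.32) and Vangl2 (−1.73) fell too. Ephb4 fell by 1.06, and its ligand gene Efnb2 rose by 0.43. Immune trafficking and other lymphatic markers were lower in 13 of 15 tested. The chemokine scavenger Ackr2 fell by 2.15 (adjusted p = 5.1e-09), and Spns2, an exporter of the lipid S1P, fell by 0.66. Sphk1, a kinase that makes this lipid, rose by 0.78 and the lymphocyte survival factor Il7 by 0.38. Blood endothelial markers were lower in 10 of 16 tested and higher in 3, with a median log2 fold change of −0.53. The median was −0.86 for the 17 pan-endothelial markers and −1.40 for the 9 lymphatic genes. Whether these medians differ was not tested. Large falls were not limited to lymphatic genes. Among the blood endothelial markers, Dll4 (−3.98) and Gpihbp1 (−3.45) fell further than all 9, and Ednrb (−2.98) further than all but Fxyd6, while Nrp1 rose (2.61).

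**Figure D4:**
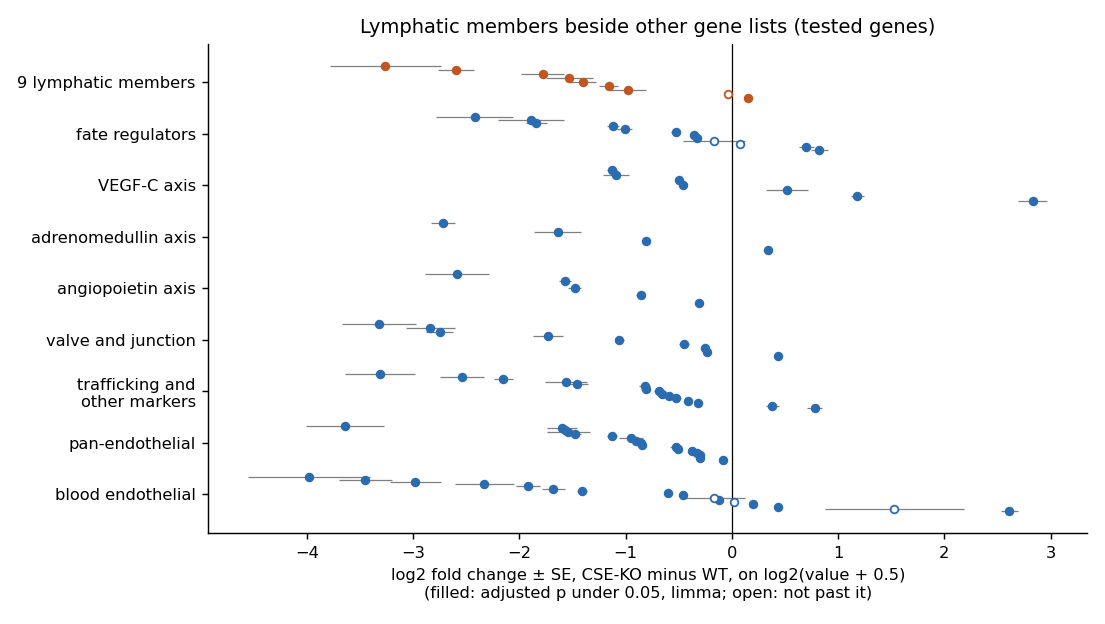
Log2 fold change ± SE (horizontal axis, CSE-KO minus WT) of the 9 lymphatic genes (orange) and of the tested genes of 8 other lists (blue); filled symbols passed an adjusted p under 0.05. Most points of every list lie left of 0, and Vegfc, at 2.83, is the farthest to the right in the VEGF-C axis.

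Genes that act with each member did not all follow it. Of 8 targets and cofactors of Prox1, 5 were lower, 1 was higher and 2 did not pass; the cofactor Hdac3 fell (log2 fold change −0.41), as did Cpt1a, a gene of fatty acid oxidation (−0.30). Around the hyaluronan receptor Lyve1, 7 hyaluronan genes were tested, of which 5 were lower and 2 higher. The scavenger receptor gene Stab2 (log2 fold change −2.54), the hyaluronidase gene Hyal2 (−0.76) and Cemip2 (−1.16) were among those that fell. Cd44, another hyaluronan receptor, rose by 1.27. The largest change of the list was that of Cemip, which rose from 4, 5 and 5 to 50, 85 and 103 (log2 fold change 3.89). Macrophages, some of which carry Lyve1, had markers that were higher in 13 of 15 tested genes and lower in 1, with a summed level of 1053 to 1098 in WT and 1643 to 1875 in CSE-KO. Without Cd14, the marker that was lower, the sums were 268 to 323 and 1328 to 1659. Adgre1, Marco, Itgam and Ptprc were at 0 in all WT libraries and between 18 and 62 in CSE-KO. Their part in the Lyve1 values was not tested.

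Of the reelin receptors, Lrp8 fell by 1.14 and Vldlr had WT values of 1427, 1537 and 1518 and CSE-KO values of 1523, 1542 and 1554 (adjusted p = 0.19). In the multimerin and EMILIN family, Mmrn2 (log2 fold change −0.85) and Emilin1 (−1.82) fell, and Emilin2 (1.24) rose. Among the partners of podoplanin, the cytoskeletal linker gene Ezr rose by 0.83, and its relatives Msn (log2 fold change 0.03) and Rdx (0.02) did not pass. Of 5 genes of integrins that Thy1 binds, 4 were higher and 1 was lower. Itgav (log2 fold change 0.13), Itgb5 (0.81) and Itgb2 (1.63) rose, Itgam went from 0 in all WT libraries to 26, 28 and 27, and Itgb3 (−0.55) fell. Itgam is also among the macrophage markers. Around Fxyd6, the sodium pump subunit gene Atp1b1 rose from 75, 74 and 76 to 584, 584 and 604.

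Among themselves, the profiles of Pdpn and Thy1 over the 6 libraries were the nearest pair of members, with a root mean square difference of 0.102 on the log2 scale after each profile was centred on its own mean. Nr2f2 and Lyve1 came next (0.115), then Prox1 and Mmrn1 (0.144). Of the 10494 genes searched, Ralgds (0.022) was the nearest to Prox1, followed by Syne3 (0.034). Ralgds, an exchange factor for Ral GTPases, went from 1277, 1254 and 1295 to 480, 321 and 312. Nearest to Mmrn1 were the endothelial junction gene Cldn5 (0.028), the adhesion gene Icam2 (0.040) and Klhl4 (0.043), and nearest to Reln were Cit (0.050), Itga1 (0.068) and Stard9 (0.079). The nearest gene was Hoxd9 for Nr2f2 (0.021), Selenop for Lyve1 (0.054), Dock8 for Sned1 (0.023), Nrgn for Fxyd6 (0.086), Rpl8 for Pdpn (0.010) and Pdia3 for Thy1 (0.005). Such likeness describes 6 libraries that share 1 large difference between groups.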

How the data were processed

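RNA sequencing of mouse lung endothelial cells was read from 6 libraries in 2 groups of 3, grouped by their titles. Per the labels' protocols, RNA was column-purified with DNase digestion, stranded mRNA libraries were prepared, and single-end reads were taken on an Illumina sequencer. The submitters' processing notes name build mm10 and, without roles or settings, DESeq2 1.26.0, featureCounts 1.6.5, Picard 2.21.7, STAR 2.7.3a and Trimmomatic 0.39. Whether counting used strand is not stated in them. The deposited score is a whole number per gene and library. It was read as a normalized count (a count divided by a size factor, then rounded), as inferred from the values and stated by no header or label.

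Tests used limma 3.58.1 in R 4.3.3 on log2(value + 0.5), with trended, robust variances, over the 13750 genes that reached 10 in 3 or more libraries. P-values are two-sided and adjusted by Benjamini-Hochberg over all 13750, and a gene is called at an adjusted p under 0.05. The added 0.5 makes the fold changes of low genes too small. The model was tested on simulated data. Ratios between genes were compared by exact permutation over libraries. Exonic lengths came from GENCODE release M21. Named genes were the members, up to 4 genes per list, taken by smallest adjusted p, and the 3 genes nearest each member in pattern, among named tested genes with a mean of at least 50; other names were chosen after their values were seen. Some genes that this rule picks are not reported here. The members and lists were chosen with earlier results of these data known. Alternatives covered scaling, filter, pseudocount, variance model, a fold threshold, each library left out, WT counted as 1 sample, the replicate number as a block, and a correction for reads that share a start position.

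Totals lay between 5698922 and 6052275 normalized counts, so depth in reads is only approximate. No value exceeded 0.843 per exonic base. If reads with a shared start were removed as duplicates, which no source states, genes dense in reads have compressed values; the correction assumes starts spread evenly over the exons.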

Additional observations from a re-analysis of the deposited data

How the results depend on the processing

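Of 162 recomputed log2 fold changes of the 9 genes, 157 kept their direction and their side of the threshold. Thy1, which was not called, changed sign with upper-quartile scaling (0.01) and equal totals (0.03). With the WT libraries counted as 1 sample, 5 members were called lower, Lyve1 and Mmrn1 losing their calls at unmoved log2 fold changes. Against a fold of 1.2, limma called 0 members higher (0 also at an unadjusted p under 0.05), 7 lower and 6711 genes in all; Pdpn was called higher under each of the other 17 alternatives. Leaving out each library in turn kept 7 called lower. The replicate numbers did not pair the libraries (correlation of deviations between −0.001 and 0.020 for equal numbers, the highest with the own number in 4 of 6 libraries); with the replicate number as a block, 7 were lower, 1 was higher and 10440 genes were called.

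Relative levels moved with the reference. Against the 17 pan-endothelial markers they were −0.78 (Prox1), −0.16 (Nr2f2), 0.02 (Lyve1), 1.15 (Pdpn), 0.95 (Thy1), −1.60 (Reln), −0.53 (Mmrn1) and −0.40 (Sned1). With shared starts allowed for, a choice made after seeing the data, they were −0.84, −0.08, −0.32, 1.37, 1.08, −1.52, −0.67 and −0.28 in that order. Against Cdh5 and Pecam1 that correction gave −1.20 for Lyve1, 0.49 for Pdpn and 0.20 for Thy1. Depth in reads is unknown, which limits low values such as that of Fxyd6 in CSE-KO 3, at 14.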

Other observations

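Some transcripts annotated on the strand opposite to a member were lower in CSE-KO, as was 39.0% of all tested genes. Mterf4, opposite to Sned1, was higher (log2 fold change 0.29), and Gm10475, opposite to Reln, was too low to be tested. Prox1os, which shares 133 exonic bases with Prox1, had WT values of 30, 21 and 22 and CSE-KO values of 7, 5 and 4 (log2 fold change −2.10). B130024G19Rik, which shares 643 exonic bases with Nr2f2, went from 62, 61 and 50 to 17, 4 and 4 (log2 fold change −3.03). The libraries were stranded, and no source used here states whether the counting used strand. Over the shared exonic bases, reads of a gene and its antisense partner therefore cannot be told apart. In all, Prox1 has 8390 exonic bases and Nr2f2 has 8625.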
